A study of Mus musculus with 24 samples.

Results

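The genes of the mitochondrial ribosome were described in the prefrontal cortex of mice that carry 1 copy of Mrpl40, a gene of its large subunit. Members were chosen by symbol, as every gene named Mrpl or Mrps followed by a digit that had a probe set of its own on the array. This gave 74 of the 18820 genes measured, 46 with Mrpl symbols (large subunit) and 28 with Mrps symbols (small subunit), spread over 17 chromosomes. Mrpl40 lies in the deleted segment, which leaves 73 members outside it, 45 of them large subunit genes. Protein-coding genes that fit the pattern but share every probe set with a neighbouring gene were Mrpl24, Mrpl43, Mrpl53 and Mrps6. Their shared probe sets differed between genotypes by -0.02, -0.06, 0.03 and 0.04 on the log2 scale, none past the threshold.

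The mutant group (MUT) held 12 male mice of genotype Df16(A)+/-, and the wild-type group (WT) held 12 male littermates. All 24 were on the C57BL6/J background, were 8 weeks old and gave prefrontal cortex, and each array was labelled as a replicate. Df16(A) is an engineered deletion on chromosome 16 that models a human microdeletion syndrome. Mutants lack 1 copy of many neighbouring genes at once, in every cell, so an effect of Mrpl40 and an effect of the other deleted genes cannot be told apart in this design. The labels do not say which mice came from the same litter, and p-values measure the spread between these 24 samples.

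Mitochondria keep their own ribosome, which translates the few messages of the mitochondrial genome, all of them for proteins of the respiratory chain and ATP synthase. Its RNAs are mitochondrial, but all of its proteins are encoded in the nucleus, made in the cytosol and imported, and many have a counterpart in bacteria while others exist only in mitochondria. The large subunit joins amino acids and holds the exit tunnel, the small subunit reads the message, and the protein of Mrpl40 sits in the central protuberance, a large subunit region that faces the small subunit. Neurons depend on respiratory chain output at their synapses.

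Promoters are shown first for 3 members. Mrpl40 is the deleted member, and Mrpl32 is the member outside the deletion with the smallest p. Mrps22 comes next after Mrps23 among small subunit members (limma, unadjusted p = 0.0237 against 0.0234), and neither was past the adjusted threshold. The choice of Mrps22 over Mrps23 followed no rule. Each line gives the 250 bases before the annotated start, 5′ to 3′ on the gene's strand, from RefSeq on GRCm38.p6. The Mrpl40 window is chr16:18876638-18876887, the Mrpl32 window chr13:14613038-14613287 and the Mrps22 window chr9:98601680-98601929, all on the minus strand. Capitals mark a match to 1 of 3 motifs.
Mrpl40: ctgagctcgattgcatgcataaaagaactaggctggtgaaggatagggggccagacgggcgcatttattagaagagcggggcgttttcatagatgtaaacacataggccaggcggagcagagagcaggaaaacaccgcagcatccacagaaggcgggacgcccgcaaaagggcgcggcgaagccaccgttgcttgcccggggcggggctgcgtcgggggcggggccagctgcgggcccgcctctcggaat
Mrpl32: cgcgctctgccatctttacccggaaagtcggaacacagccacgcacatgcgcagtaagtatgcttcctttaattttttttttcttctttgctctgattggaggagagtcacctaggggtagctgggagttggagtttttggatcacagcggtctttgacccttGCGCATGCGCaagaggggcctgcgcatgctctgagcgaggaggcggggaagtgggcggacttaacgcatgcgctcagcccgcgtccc
Mrps22: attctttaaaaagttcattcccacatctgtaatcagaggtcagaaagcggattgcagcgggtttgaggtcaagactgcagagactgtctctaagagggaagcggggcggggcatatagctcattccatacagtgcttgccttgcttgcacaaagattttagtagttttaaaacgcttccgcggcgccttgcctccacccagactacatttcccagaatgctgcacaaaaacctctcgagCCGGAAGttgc

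The 3 motifs searched, on both strands and in 300 bases from 250 before to 50 after each start, were those of NRF1, of the ETS core bound by GABPA (CCGGAAG) and of YY1 (AAGATGGCG), factors known to act on nuclear genes for mitochondria. The NRF1 motif has 10 letters and was met in Mrpl32 as GCGCATGCGC, with any base allowed in the fifth place. No motif's letters contain another's, but matches may overlap. The match in Mrpl32 begins 87 bases before its start, and Mrps22 held the ETS letters from 11 bases before its start. Mrpl40 held none of the 3 in this window. Of the 74 members, 65 had a promoter window, and 39 of those (60%) held at least 1 motif, against 15.1% of 27025 genes with a window. The ETS core was found in 36.9% of members and 9.9% of all genes, the NRF1 motif in 20% and 5.2%, and the YY1 motif in 12.3% and 1.6%. Large subunit members held the NRF1 motif in 25% of 40 windows and the ETS core in 32.5%, and small subunit members in 12% and 44% of 25. These are matches of letters, and no binding was measured.

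Mrpl40 was at 9.03 to 9.29 (median 9.16) in the 12 mutants, on the RMA log2 scale, against 9.82 to 10.003 (median 9.93) in the 12 wild-type mice. Every mutant was below every wild-type mouse, which held for 20 of the 18820 genes (0.106%). Mrpl40 averaged 9.16 ± 0.07 in MUT and 9.93 ± 0.05 in WT (SD, n = 12 each), and its difference was -0.76 ± 0.03 (SE), a ratio of 0.59 (limma, adjusted p = 1.4e-16). Of all genes, 43 (0.228%) were lower and 100 (0.531%) higher in MUT at an adjusted p under 0.05. In bulk tissue, fewer cells of a type and less RNA per cell cannot be told apart.

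The genes on both sides of Mrpl40 lie in the deletion too. Hira, a histone chaperone whose promoter faces that of Mrpl40 with 113 bases between the starts, averaged 8.32 in MUT and 8.96 in WT. Its difference was -0.64 ± 0.03, and that of 2510002D24Rik, the neighbour on the other side, was -0.82 ± 0.03 (limma, adjusted p = 1.0e-13 and 3.1e-15). Within genotype, the level of Hira correlated with that of Mrpl40 at r = 0.19, and that of 2510002D24Rik at r = 0.36, over 24 mice.

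**Figure D1:**
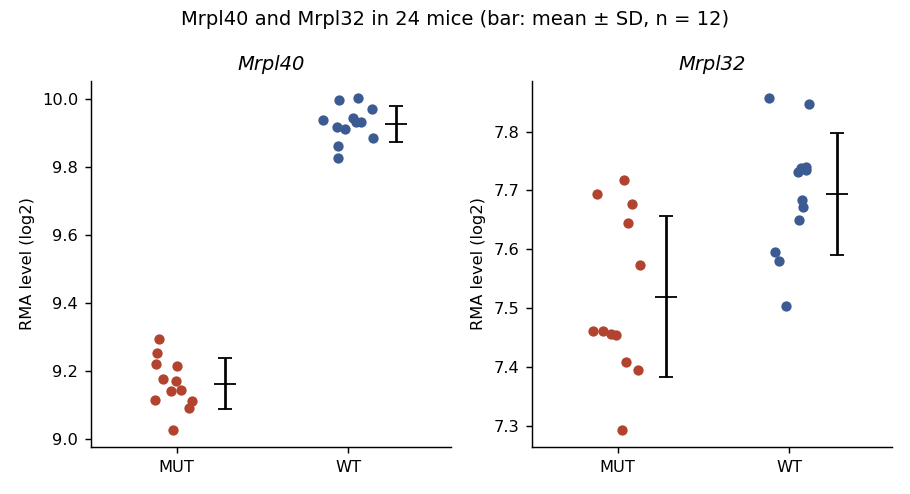
RMA log2 level (y axis) of Mrpl40 and Mrpl32 in each of 12 MUT and 12 WT mice. Points are mice and bars are mean ± SD. The Mrpl40 levels of the genotypes do not overlap, while those of Mrpl32 do, between 7.50 and 7.72.

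No member outside the deletion passed the test. Of the 73, 0 were lower and 0 higher at an adjusted p under 0.05 (limma), against the 0.228% and 0.531% of all genes. At an unadjusted p under 0.05, 5 were lower (Mrpl32, Mrpl36, Mrpl19, Mrps23 and Mrps22) and 0 higher, against 5.82% of all genes lower and 6.11% higher. The differences were small and mostly negative: they lay between -0.18 and 0.09 with a median of -0.026, and 54 of 73 (74%) were below 0, against a median of -0.0014 and 51% below 0 over all genes. With dim genes filtered out, the median over all genes was -0.0099 and that of the 73 members stayed at -0.026. Of the 95% intervals, 68 lay within 0.2 of 0 and all 73 within 0.3, so changes of the size seen for Mrpl40 fall outside each of them.

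Mrpl32 was the member outside the deletion with the lowest p. It encodes a large subunit protein with a bacterial counterpart, which the m-AAA protease of the inner membrane cuts before it joins the ribosome. Its level was 7.29 to 7.72 (median 7.46) in MUT and 7.50 to 7.86 (median 7.71) in WT. The genotypes overlapped, with 5 mutants in the range of the wild-type mice. Mrpl32 averaged 7.52 ± 0.14 in MUT and 7.69 ± 0.10 in WT (SD, n = 12 each), a difference of -0.18 ± 0.05 with a 95% interval from -0.28 to -0.08. This did not pass the test (limma, adjusted p = 0.107, unadjusted p = 0.0014), and the adjusted p ranged from 0.053 to 0.539 over 37 alternatives. The m-AAA subunits Afg3l2 and Spg7, named for that role and outside the naming rule, differed by -0.04 ± 0.02 and -0.02 ± 0.04 (adjusted p = 0.460 and 0.862).

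None of the other large subunit members passed the test. Mrpl36, a small protein with a bacterial counterpart that joins the large subunit late, was at 9.56 to 9.87 (median 9.72) in MUT and 9.60 to 9.93 (median 9.81) in WT. The genotypes overlapped over most of that range, and the difference was -0.11 ± 0.04 (limma, adjusted p = 0.189). Mrpl19, with a bacterial counterpart, differed by -0.08 ± 0.03 (adjusted p = 0.331). Mrpl14, which lies at the face that meets the small subunit, differed by -0.10 ± 0.05 (adjusted p = 0.448). Mrpl44, with a ribonuclease-like fold, and Mrpl15, with a bacterial counterpart, each differed by -0.07 ± 0.04 (adjusted p = 0.487 and 0.515). Over the 45, 35 (77.8%) were below 0, with a median of -0.027, and 3 were lower at an unadjusted p under 0.05. Over all genes 51% were below 0 and 5.82% were lower at that p, so the count of 3 is near the share of all genes. The highest was Mrpl21, singled out after its values were seen, at 0.09 ± 0.07 with a 95% interval from -0.05 to 0.24.

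Members listed as neighbours of Mrpl40 in the central protuberance, a list that may not be complete, differed little between genotypes. These were Mrpl18, Mrpl27, Mrpl38, Mrpl46, Mrpl48 and Mrpl52, and their differences lay between -0.03 and -0.01 with a median of -0.02. All 6 were below 0, against 74% of the 73 members and 51% of all genes. None had an unadjusted p under 0.05, against 5.82% of all genes lower and 6.11% higher. Used probe sets of Mrpl27 and Mrpl48 were numbered among those of chromosomes 18 and 4. RefSeq lists a pseudogene named for each on those chromosomes, so these 2 levels are uncertain. Mrpl38, with the narrowest interval of the 6, was at 8.95 to 9.21 (median 9.13) in MUT and 9.07 to 9.21 (median 9.14) in WT. Its difference was -0.03 ± 0.03 with a 95% interval from -0.08 to 0.03. The genotypes overlapped, with the lowest mutant below every wild-type mouse.

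None of the small subunit members passed the test, and their differences lay between -0.09 and 0.05. Mrps23, a protein found only in the mitochondrial ribosome, was at 8.86 to 9.14 (median 8.98) in MUT and 8.98 to 9.20 (median 9.08) in WT. Mrps22, also particular to mitochondria and mutated in a human respiratory chain disorder, was at 8.09 to 8.39 (median 8.23) in MUT and 8.24 to 8.53 (median 8.30) in WT. Both overlapped between genotypes, with differences of -0.09 ± 0.04 each (limma, adjusted p = 0.331 each). Mrps27, of the pentatricopeptide repeat family, differed by -0.08 ± 0.04 (adjusted p = 0.454). Mrps2, with a bacterial counterpart, differed by -0.06 ± 0.03 (adjusted p = 0.516). Mrps34, needed for a stable small subunit in mice, differed by -0.08 ± 0.05 (adjusted p = 0.566). Mrps12, the counterpart of a bacterial protein of the decoding centre, differed by -0.09 ± 0.06 (adjusted p = 0.579). Of the 28, 19 (67.9%) were below 0, with a median of -0.024, and 2 were lower at an unadjusted p under 0.05, against the same 51% and 5.82% of all genes, so the count of 2 is near that share.

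**Figure D2:**
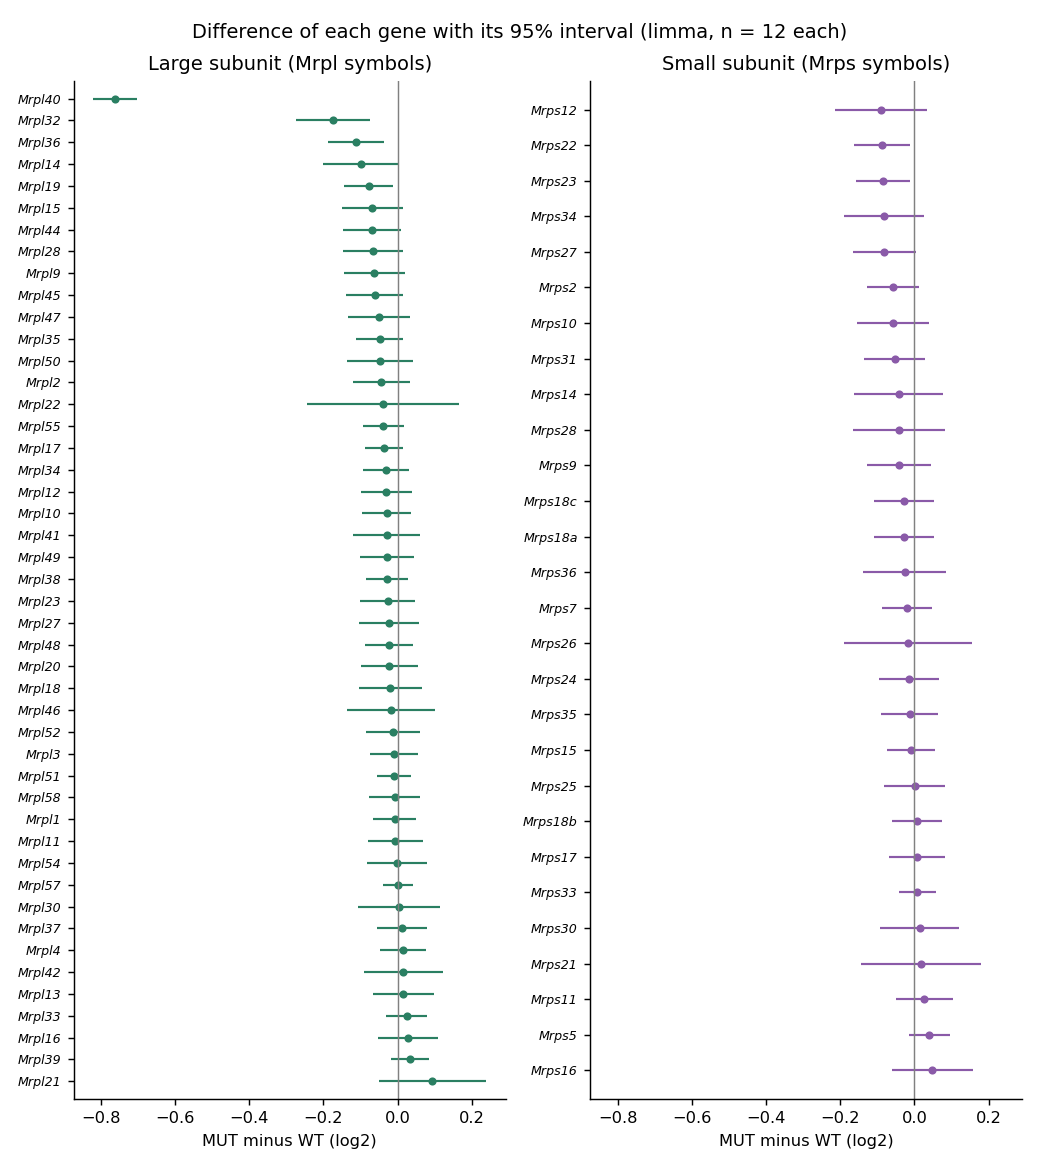
Difference MUT minus WT (x axis, log2) of each of the 46 large and 28 small subunit genes, with its 95% interval from limma, n = 12 each. Mrpl40 stands alone at -0.76, and the other 73 lie between -0.18 and 0.09.

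The subunits differed between genotypes by similar amounts, each less than the spread between mice. The mean level of the 45 large subunit genes was 8.78 to 8.88 in MUT and 8.80 to 8.94 in WT, averaging 8.83 ± 0.03 and 8.85 ± 0.05 in those genotypes (SD, n = 12 each). For the 28 small subunit genes it was 8.40 to 8.57 in MUT and 8.47 to 8.62 in WT, averaging 8.50 ± 0.04 and 8.53 ± 0.05. In each mouse the large subunit mean less the small subunit mean gave 0.32 ± 0.03 in MUT and 0.32 ± 0.03 in WT. With Mrps18a and Mrps30, whose proteins sit in the large subunit despite their symbols, counted there, the medians stayed at -0.027 for the large and -0.024 for the small subunit. Proteins found only in mitochondria had a median difference of -0.017, with 18 of 25 below 0, and those with a bacterial counterpart -0.028, with 31 of 42.

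The labels' sample descriptions carry a running number from 1 to 24, which is also the order of deposit and is not said to be an order of hybridisation. Members were below 0 more often on the arrays numbered 1 to 12 than on those numbered 13 to 24, and so were all genes. On arrays 1 to 12 (7 MUT, 5 WT), 56 of 73 members were below 0 with a median of -0.044, and on arrays 13 to 24 (5 MUT, 7 WT), 43 were, with a median of -0.0098. Large subunit medians were -0.054 on arrays 1 to 12 and 0.0006 on arrays 13 to 24, while small subunit medians were -0.033 and -0.034. Over all genes the medians in that order were -0.012 and 0.0064. Members below 0 on both were 32 of 73 (43.8%), against 29.9% of all genes. The difference between the array sets passed the test for 0 members and 0 genes (limma interaction). Mrpl40 differed by -0.80 and -0.72, and Mrpl32 by -0.19 and -0.14. Without mutants 5, 9 and 10, which an earlier analysis of these data found apart, 49 members were below 0 and the small subunit median was -0.0012. On the first component of the deviations from the genotype means these 3 lay at -0.28, -0.50 and -0.28. Wild-type mice 5 and 9 lay near mutants 5 and 10, at -0.29 and -0.26. Mutant 9 lay farthest out on that side, and mutant 4 lay at 0.41 on the other.

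**Figure D3:**
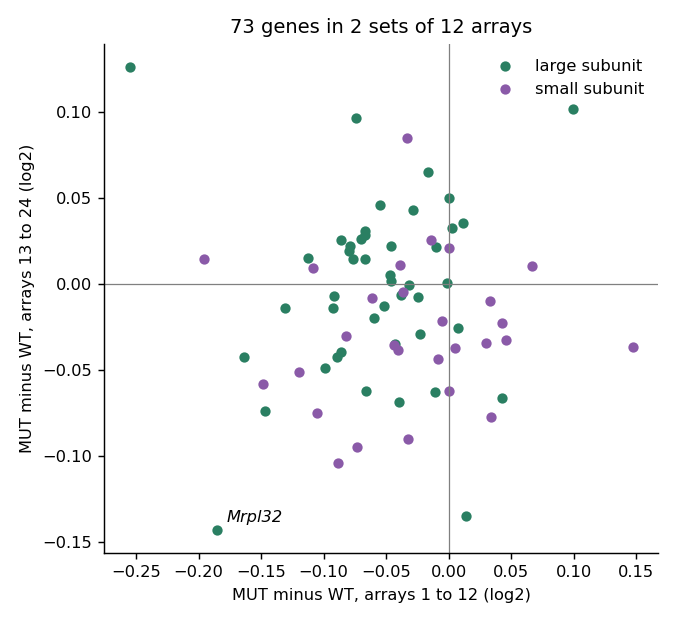
Difference MUT minus WT (log2) on arrays 1 to 12 (x axis, 7 MUT and 5 WT) and on arrays 13 to 24 (y axis, 5 MUT and 7 WT), 1 point per gene outside the deletion. Most points lie left of 0, 56 of 73, while 43 lie below 0 on the y axis, and Mrpl32 is low on both.

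Within a genotype, members tended to be high in the mice where Mrpl40 was high. Pearson's r was taken between deviations from the genotype means. Its median with Mrpl40 was 0.19 over the 73 members (24 mice), against 0.018 over all genes, and r was above 0 for 60 of 73 members, against 52.8% of all genes. The median over members was 0.07 on arrays 1 to 12, 0.32 on arrays 13 to 24 and 0.37 after median centring. Large subunit members had a median of 0.24 and small subunit members one of 0.11. In MUT alone the medians were 0.25 for the large and 0.17 for the small subunit, and in WT alone 0.35 and 0.22. Above 0 in both genotypes were 37 of 73, against 30.7% of all genes. These values describe genes read from the same 24 arrays, so they share RNA quality, array and mouse.

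A slope on Mrpl40's deviation was then fitted across all genes, with genotype as a term. No member followed Mrpl40 at an adjusted p under 0.05, and 0 of 18819 genes (0%) did. At an unadjusted p under 0.05, 12 members had a positive slope, 10 large and 2 small, and 0 a negative one, against 4.58% and 3.24% of all genes. After the arrays were centred on their medians, Mrpl41 was past the threshold, as were 59 genes in all. Mrpl40 itself varied little within genotype, with an SD of 0.07 in MUT and 0.05 in WT, and the SDs of the other members ran from 0.03 to 0.31.

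Mrpl41, a large subunit protein found only in mitochondria, had the highest correlation with Mrpl40. Its level was 8.28 to 8.63 (median 8.45) in MUT and 8.30 to 8.73 (median 8.49) in WT, and the genotypes overlapped over most of that range. The correlation was 0.63 over 24 mice, 0.69 in MUT and 0.62 in WT (slope adjusted p = 0.449, limma). Mrpl46, a neighbour in the central protuberance, came next at 0.57, with 0.78 in MUT and 0.15 in WT, and Mrps23 followed at 0.54, with 0.50 in MUT and 0.64 in WT. At the other end were Mrpl1, of the stalk where spent tRNA leaves, at -0.41, Mrps36, at -0.33, and Mrpl45, which anchors the ribosome to the inner membrane, at -0.19. Mrps36 is named as a ribosomal gene, but its protein is now known as part of the oxoglutarate dehydrogenase complex.

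No relation of Mrpl32 to Mrpl40 from mouse to mouse was detectable. In MUT, r was 0.26 and Spearman's rho 0.41 (two-sided permutation test with 100000 resamples, p = 0.409 and 0.185, n = 12). In WT, r was -0.17 and rho -0.19 (permutation p = 0.605 and 0.554, n = 12). Adjusted over these 2 relations, the p-values were 0.605 for r in each genotype, and 0.370 in MUT and 0.554 in WT for rho. Without the 2 mice farthest from the median of Mrpl40, r was 0.39 in MUT and 0.22 in WT.

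The subunit means gave the same order as the single genes. With Mrpl40, the large subunit mean correlated at 0.59 in MUT and 0.58 in WT, and the small subunit mean at 0.23 and 0.39 in those genotypes. A first component of the deviations over all genes, which held 13.9% of their variance, correlated with the large mean at 0.33, with the small mean at 0.67 and with Mrpl40 at 0.03. Its part in these correlations was tested only by adding it as a term, which gave a median r of 0.20. Pairs of members correlated with each other as well. Their mean r was 0.19 between large subunit genes, 0.16 between small ones and 0.17 across subunits. Over all pairs of genes the mean was 0.009. The medians for members in that order were 0.21, 0.17 and 0.18.

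**Figure D4:**
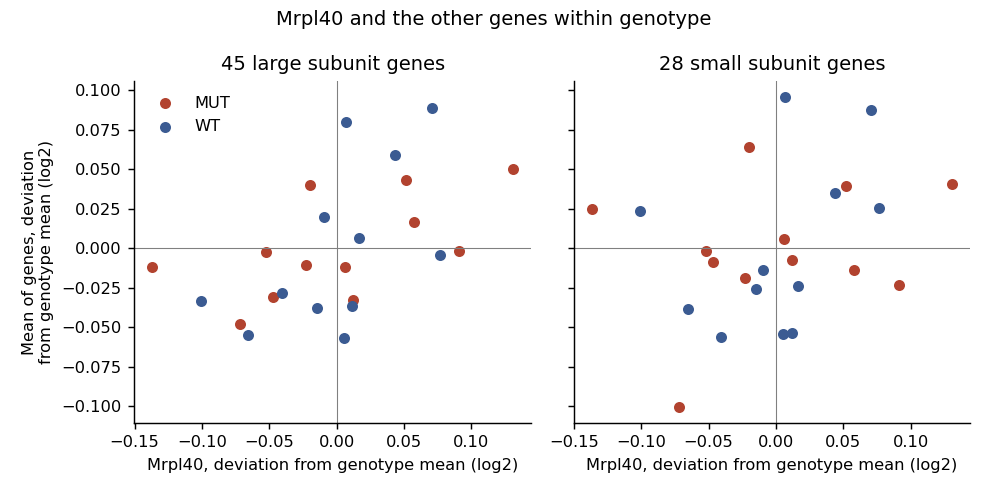
Deviation of each mouse from its genotype mean, Mrpl40 on the x axis and the mean of 45 large or 28 small subunit genes on the y axis (both log2), MUT and WT by colour. Large subunit means are higher where Mrpl40 is higher (r of 0.59 in MUT and 0.58 in WT), and for small subunit means r is 0.23 in MUT and 0.39 in WT.

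**Figure D5:**
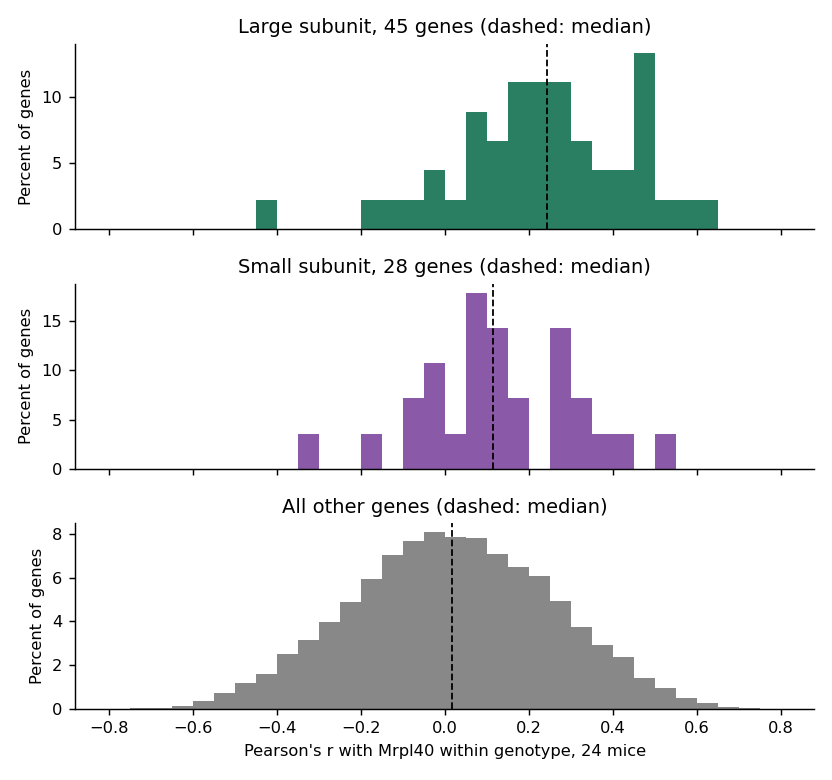
Share of genes (y axis, percent) by Pearson's r with Mrpl40 within genotype over 24 mice (x axis), for 45 large subunit genes, 28 small subunit genes and all other genes. Dashed lines are medians, 0.24 for the large and 0.11 for the small subunit, with the other genes centred near 0.

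The genes most like Mrpl40 within genotype were not members. Ranked by r over 24 mice, the first 5 of all genes were Cops6 at 0.79, Lancl3 at 0.73, Fbxo33 at 0.72, Ciapin1 at 0.71 and Wdr61 at 0.70. Each had an adjusted p of 0.391 for its slope (limma).

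No other gene listed for mitochondrial translation passed the test. Of 86 listed genes, 76 were measured, and 0 passed the test in either direction (limma), while 8 were lower and 3 higher at an unadjusted p under 0.05, against 5.82% and 6.11% of all genes. Their median was -0.025, with 56 (73.7%) below 0, against 51% of all genes, the share beside which the counts below 0 in each list stand. A list of ribosomal proteins under other symbols, which also held Oxa1l, had 4 of 6 measured, all below 0. Oxa1l, the membrane insertase that binds the ribosome and is no ribosomal protein, was at -0.03 ± 0.03, and Ptcd3, a small subunit protein, at -0.03 ± 0.04 (adjusted p = 0.769 and 0.770). Of 25 assembly factors 18 were below 0, with C1qbp, a matrix protein that aids mitochondrial translation, at -0.07 ± 0.02 and Ddx28, a helicase of large subunit assembly, at 0.11 ± 0.04 (adjusted p = 0.193 and 0.257). Among 14 translation factors 12 were below 0, with Tufm, the elongation factor that brings tRNA, at -0.08 ± 0.03 and Mtrf1l, a release factor, at -0.14 ± 0.05 (adjusted p = 0.226 and 0.269). Of 21 mitochondrial tRNA synthetases 13 were below 0, with Nars2 for asparagine at -0.11 ± 0.03 and Fars2 for phenylalanine at 0.11 ± 0.04 (adjusted p = 0.178 and 0.257). Regulators of mitochondrial genes had 9 of 12 below 0, with Tfam, which packages mitochondrial DNA, at -0.10 ± 0.05 and the nuclear receptor Esrra at -0.06 ± 0.04 (adjusted p = 0.452 and 0.547).

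Many members face another gene across a shared promoter region. Within 1000 bases, 25 of 65 members (38.5%) had such a partner, against 12.2% of genes with a window. Of 20 pairs outside the deletion with both genes measured, 0 partners passed the test and 1 had an unadjusted p under 0.05, Psma2, a proteasome subunit whose start lies 205 bases from that of Mrpl32. Psma2 was at 8.88 to 9.16 (median 9.03) in MUT and 9.05 to 9.28 (median 9.11) in WT, overlapping, and differed by -0.11 ± 0.03 (limma, adjusted p = 0.169). Its level correlated with that of Mrpl32 within genotype at 0.10. The median r over the 20 pairs was 0.04, the highest being Mrps12 with Sars2 at 0.52, and Mrpl46 with Mrps11, 2 members whose starts lie 42 bases apart, had 0.04.

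Which probe set stands for a gene mattered for a few members. Used probe sets of 7 members were numbered among those of another chromosome, against 2.19% of all genes. The members were Mrpl27, Mrpl41, Mrpl48, Mrpl51, Mrps10, Mrps33 and Mrps36. For Mrps10 the probe sets next in number were mixed, with chromosome Y the most frequent at 38.9%. For the others the most frequent chromosome held 85% to 100%. Among these 7, RefSeq lists pseudogenes by name for Mrpl27, Mrpl48 and Mrps36, so levels from those probe sets are uncertain. RefSeq also names a pseudogene of Mrpl23 on chromosome 2, where a second Mrpl23 probe set was numbered. That probe set correlated at 0.98 with the used one, which was numbered on the gene's own chromosome. Whether either reads the pseudogene was not tested. Mrpl51, singled out after its values were seen, was among these 7. Its brighter probe set averaged 9.82 ± 0.05 in MUT and 9.83 ± 0.04 in WT, a difference of -0.009 ± 0.022. The probe set numbered on its own chromosome averaged 9.39 ± 0.12 in MUT and 9.52 ± 0.10 in WT, a difference of -0.13 ± 0.05 (limma over all probe sets, adjusted p = 0.338), and the 2 correlated at 0.15. Probe sets of 1 gene also disagreed where both were numbered on its own chromosome: those of Mrpl47 differed by -0.05 ± 0.04 and -0.20 ± 0.09 (r = -0.11), and those of Mrps5 by 0.04 ± 0.03 and -0.05 ± 0.03 (r = 0.22), the brighter first. The level of Mrpl41, highest in correlation with Mrpl40, comes from a probe set numbered on another chromosome, with no single-symbol probe set of its own chromosome beside it. Mrpl41 also shares 2 probe sets with Dph7, which differed by 0.01 ± 0.03 and -0.10 ± 0.04 (limma over all probe sets, adjusted p = 0.907 and 0.465). Probe sets that Mrpl19, Mrpl48 and Mrps36 share with another gene differed by -0.02 ± 0.06, 0.01 ± 0.03 and -0.01 ± 0.05.

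Markers of cortical cell types and neighbouring tissues were measured on the same arrays. Cortical neuron markers (8 of 9 measured) had a mean of 11.42 to 11.50 in MUT and 11.43 to 11.48 in WT. The median difference of the 8 was -0.0048, with 5 below 0, and 1, Tbr1, was lower at an unadjusted p under 0.05. Markers of the striatum, a region beside the dissected tissue, had a mean of 7.59 to 7.87 in MUT and 7.52 to 7.79 in WT. Of the 4, 2 (Ppp1r1b and Drd2) were higher at an unadjusted p under 0.05. The mean of the 4 correlated with Mrpl40 within genotype at 0.48 over 24 mice. Singly, Ppp1r1b correlated at -0.385, and Drd1, Drd2 and Rgs9 at 0.48, 0.41 and 0.44. Means of the astrocyte, oligodendrocyte and blood lists correlated with Mrpl40 at -0.40, 0.36 and -0.28, and those of the remaining lists at -0.18 to 0.23. Blood markers (3 of 5 measured) had a mean of 5.84 to 6.99 in MUT and 6.19 to 9.30 in WT. Of the 3, Ngp at -1.20 ± 0.43 and S100a8 at -0.67 ± 0.32 were lower at an unadjusted p under 0.05 (limma, adjusted p = 0.257 and 0.408). The other, Alas2, was at -0.05 ± 0.15. Ngp ranged widely in WT, from 5.90 to 10.64 (median 6.60), against 5.33 to 7.49 (median 5.90) in MUT. Endothelial markers included Cldn5, which lies in the deletion and averaged 8.77 in MUT and 9.41 in WT. The other 3, Pecam1, Flt1 and Kdr, differed by -0.05, -0.02 and 0.01, none at an unadjusted p under 0.05. Astrocyte, oligodendrocyte, microglia and choroid plexus lists had no marker at an unadjusted p under 0.05. Over all genes 5.82% were lower and 6.11% higher at that p, and no marker but Cldn5 was past the adjusted threshold. The part of tissue makeup in the correlations with Mrpl40 was not tested.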

How the data were processed

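Total RNA (100 ng) from 24 prefrontal cortices was labelled with a whole-transcript kit and hybridised to Affymetrix arrays, per the labels' protocols. The authors deposited log2 values, 1 per probe set and array (35556 probe sets), made with RMA per the submitters' processing notes. The RMA version and steps and the array's genome build were not given in the sources used here. Values ran from 1.82 to 14.49 and array medians from 6.71 to 6.82. There is no detection call, so dim genes could not be called absent, and the number of arrays limits the precision. RMA can shrink differences of dim probe sets.

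Probe sets with 1 symbol (21218, against 1881 with several and 12457 with none listed) were used, the brightest per gene by its mean over 24 arrays. This gave 18820 genes, of which 18790, and all 74 members, matched RefSeq on GRCm38.p6. Of the members, 12 had several probe sets. Genotypes were compared with limma 3.58.1 in R 4.3.3 (lmFit, eBayes, genotype as the only term), adjusted over all genes by Benjamini-Hochberg with a threshold of 0.05. Adjusted p-values and standard errors come from that fit. The slope on Mrpl40 used its deviation from the genotype mean as a second term. Promoter and figure steps used Python 3.11.15. The fits were tested on simulated data with known answers before use. There the genotype comparison found 8% of changes of 0.1 on the log2 scale and 54% of changes of 0.2. It found 96% of changes of 0.4 and 100% of changes of 0.8. A true change near 0.1 in a member would therefore mostly be missed.

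Genes were named by a rule: Mrpl40 and Mrpl32, the 6 Mrpl and 6 Mrps members with the smallest p, the 3 highest and 3 lowest in correlation with Mrpl40, the 5 genes most like Mrpl40, up to 2 of each pathway list, the central protuberance members and the neighbours of Mrpl40. The divergent partners, the probe set comparison and the motifs were described in addition. The members and lists were chosen with earlier results of these data known. Alternatives covered scaling, variance trend, array weights, a dim-gene filter, averaging a gene's probe sets, a replicate block, the labels' running array number, outlying arrays, the first residual component, Spearman's rho, the 2 reassigned symbols, leaving out each mouse and, chosen after seeing the data, probe sets numbered on the gene's own chromosome.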

Additional observations from a re-analysis of the deposited data

How the results depend on the processing

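Mrpl40 stayed between -0.80 and -0.72 and past the threshold in 37 alternatives. Mrpl32 stayed between -0.19 and -0.14 without passing it. Counts of members and pathway genes past the threshold in the genotype comparison were 0 in all 37. The exception in following Mrpl40 was median centring, where 1 member, Mrpl41, followed (59 genes in all), against 0 otherwise. The cause was not tested. The count of 73 members below 0 ran from 43 (arrays 13 to 24) to 58, and was 46 after quantile normalization, where the median was -0.014. The median of large subunit members ran from -0.054 (arrays 1 to 12) to 0.0006 (arrays 13 to 24), so its sign depended on the arrays. The median of small subunit members ran from -0.036 to -0.0012, the last without mutants 5, 9 and 10. The median correlation with Mrpl40 ran from 0.07 (arrays 1 to 12) to 0.37 (median centring). With 1 mouse left out in turn, Mrpl40 ran from -0.77 to -0.75 and Mrpl32 from -0.19 to -0.15 (adjusted p from 0.053 to 0.188). The median of members then ran from -0.032 (without mutant 4) to -0.016 (without wild type 4), that of large members from -0.033 to -0.015 (without wild type 12), that of small members from -0.036 to -0.015 (without mutant 9), and the correlation from 0.17 to 0.25. Genotypes share replicate numbers 1 to 12, but the labels do not say what a number marks. Deviations of mice with the same number correlated at -0.08 to 0.31 (median 0.10), against a median of -0.014 for different numbers. What lies behind that difference was not tested. As the labels leave the numbers unexplained, the main fit did not take them as pairs. With a replicate block, Mrpl40 differed by -0.76 (adjusted p = 1.95e-09) and Mrpl32 by -0.18 (adjusted p = 0.067), 147 genes were past the threshold against 143, and no member outside the deletion was. Dim genes have little signal over background, and no background level was given.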
